A study of Mus musculus with 45 samples.

Results

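Transcript levels of 10 genes that bind, assist or restrain the cAMP response element binding protein CREB were followed in mouse hippocampal primary neurons during action potential (AP) firing and during excitotoxic interventions. The 10 genes were Creb1, Atf1 and Crem (factors that bind the cAMP response element, CRE), Crebbp, Crtc1, Crtc2 and Crtc3 (coactivators), and Sik1, Sik2 and Sik3 (salt-inducible kinases). They were chosen by name, as the rows whose Ensembl gene identifiers carry these symbols, and all 10 were found among the 54532 genes of the count table. All 10 had reads in every library, with between 40 and 11482 counts per library, so no low-count filter removed any of them. In the GRCm38 build 5 of the genes lie on chromosome 17 (Sik1, ENSMUSG00000024042, chr17:31844250-31855804, minus strand), chromosome 9 (Sik2, ENSMUSG00000037112, chr9:50892801-51009073, minus strand, and Sik3, ENSMUSG00000034135, chr9:46012820-46224194, plus strand), chromosome 18 (Crem, ENSMUSG00000063889, minus strand) and chromosome 1 (Creb1, ENSMUSG00000025958, chr1:64532645-64604548, plus strand). None of the 10 shares an exon with another gene on its strand.

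CREB is held at CRE sites in the promoters of activity-regulated genes and becomes active when calcium- and cAMP-dependent kinases phosphorylate it, which recruits the coactivator CBP, the product of Crebbp. A second arm runs through the CRTC coactivators. They are kept in the cytoplasm while salt-inducible kinases phosphorylate them, and enter the nucleus when calcineurin removes the phosphates. Several genes of the system are themselves CREB targets and oppose it: Sik1 encodes a kinase that returns CRTCs to the cytoplasm, and an internal promoter of Crem gives the short repressor ICER. In neurons the system is known for its part in activity-driven transcription, survival and memory.

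The libraries came from hippocampal cultures of newborn C57BL/6N mice, treated with the mitotic inhibitor AraC on DIV3 and treated on DIV10/11 according to the labels. The GABA-A receptor antagonist bicuculline (Bic, 50 µM), which disinhibits the network and induces AP firing, was applied for 0.5, 1 or 2 h, and an untreated control was kept. In the short protocol (SP), tetrodotoxin (TTX, 1 µM, a sodium channel blocker that ends AP firing) or TTX with 30 µM N-methyl-D-aspartate (TTX/NMDA) was added after 0.5 h of Bic for another 0.5 h. In the long protocol (LP), TTX, TTX/NMDA or the glutamate transport inhibitor TBOA (50 µM) was added after 1 h of Bic for another 1 h, with Bic still present in every intervention. Each of the 9 conditions was measured once in each of 5 culture preparations, which gives 45 polyA RNA libraries. The replicate numbers of the labels (1, 3, 6, 7 and 8) were taken as those of the preparations. TTX against Bic of the same total duration gives the passive effect of silencing, TTX/NMDA against TTX the active effect of the excitotoxic signal, TTX/NMDA against Bic the total effect, and TBOA against 2 h Bic the effect of glutamate spillover. Several of these comparisons share the same libraries and are not independent of each other.

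The libraries held between 11316580 and 81129276 counts assigned to genes, with a median of 26239614, and the lowest correlation of 2 libraries within a condition was 0.986. All 8 neuronal markers examined were expressed, with a summed level of 5795.6 to 7680.6 CPM (read counts relative to TMM-scaled library size), against 856.6 to 1843.2 CPM for 6 astrocyte markers and 3.03 to 5.79 CPM for 5 microglial markers. The LP TTX/NMDA libraries differed here. Their neuronal sum was 5930.5 to 6489.5 CPM against 6877.7 to 7680.6 in LP TTX, with 3 of 8 neuronal markers called down, while the astrocyte sum was 1056.0 to 1843.2 CPM against 944.2 to 1397.8, with 5 of 6 called up and 1 down. Of 5 oligodendrocyte markers 3 were called up, and of 4 vessel and fibroblast markers 2, and 1 of 5 microglial markers was called up. In this comparison 23.3% of all genes tested and 46.9% of those with a mean of at least 1 CPM were called. The SP active effect had 1 neuronal marker up, 2 down and 1 astrocyte marker down, and the SP total effect 2 neuronal markers and 1 astrocyte marker down. For the LP total effect 1 neuronal marker was called up and 3 down, and for LP TTX/NMDA against control 2 up and 2 down. The difference in active effect between the protocols had 0 neuronal and 0 astrocyte markers called. LP TTX had 1 oligodendrocyte marker down against 2 h Bic and against control, and 1 neuronal marker up against control. The part of these marker changes in the SP and LP results was not tested. In bulk RNA, fewer cells of a type and less RNA per cell cannot be told apart. The control library of preparation 3 was the lowest of its 5 for 7 of the 10 genes.

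Promoter sequence was available for 7 of the 10 genes, as RefSeq windows of the GRCm38.p6 build that run from 250 bases before to 50 bases after the start of the gene. The windows were searched on both strands for the full CRE, TGACGTCA, and for its half-sites TGACG and CGTCA, which are both contained in every full site. Sik1, Crem and Crtc2 had no window, so the search does not cover Sik1 and Crem, which were named above as CREB targets. A full CRE was present in 0 of the 7 windows, and in 1.79% of all 32851 promoter windows of the table. At least 1 half-site was present in 3 of the 7 (Atf1, Sik2 and Sik3), against 20.8% of all windows, and at least 2 in Sik2 and Sik3, against 5.01%. The windows of Sik2 (chr9:51009024-51009323, minus strand), Sik3 (chr9:46012570-46012869, plus strand) and Crtc1 (chr8:70439524-70439823, minus strand) are printed because these 3 genes had the lowest LP TTX/NMDA levels relative to LP TTX. Capitals mark half-sites, and the sequence of each gene reads from 5′ to 3′ on its own strand.
Sik2: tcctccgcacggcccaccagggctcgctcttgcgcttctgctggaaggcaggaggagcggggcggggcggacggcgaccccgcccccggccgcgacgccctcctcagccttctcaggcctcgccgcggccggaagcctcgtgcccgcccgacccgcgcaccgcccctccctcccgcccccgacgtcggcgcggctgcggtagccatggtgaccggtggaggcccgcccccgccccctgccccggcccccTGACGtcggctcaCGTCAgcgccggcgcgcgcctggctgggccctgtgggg
Sik3: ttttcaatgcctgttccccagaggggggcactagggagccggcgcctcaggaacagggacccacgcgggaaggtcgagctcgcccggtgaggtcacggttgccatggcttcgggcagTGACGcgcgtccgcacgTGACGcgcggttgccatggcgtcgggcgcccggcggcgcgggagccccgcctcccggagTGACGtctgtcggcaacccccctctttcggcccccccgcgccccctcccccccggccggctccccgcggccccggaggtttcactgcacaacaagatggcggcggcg
Crtc1: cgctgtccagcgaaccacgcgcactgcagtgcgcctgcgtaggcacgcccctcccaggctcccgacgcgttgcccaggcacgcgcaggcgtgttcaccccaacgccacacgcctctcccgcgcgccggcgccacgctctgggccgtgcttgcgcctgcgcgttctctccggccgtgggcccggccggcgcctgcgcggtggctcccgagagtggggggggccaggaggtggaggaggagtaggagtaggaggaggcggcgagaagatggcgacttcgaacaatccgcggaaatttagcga
In Sik2, one half-site began 1 base before the start of the gene and another at base 13 after it. In Sik3, 3 half-sites began 133, 116 and 57 bases before the start, a number reached by 1.03% of all windows. The Crtc1 window held neither motif, which says only that these letters do not occur there. A match is a string of letters and not evidence of binding.

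Per length of transcript, Sik1, Crtc1 and Sik3 were the most abundant of the 10 genes. On the RPKM scale (CPM per kilobase of merged exons), the means over all libraries were 17.5 for Sik1, 12 for Crtc1 and 11.7 for Sik3. Sik2 and Crebbp followed with 4.01 and 4.02, Crem with 3.72, Creb1 with 3.01, Crtc2 with 2.94, Crtc3 with 2.38 and Atf1 with 1.57. The genes differed widely in how far their condition means were apart. The highest condition mean was 5.87 times the lowest for Sik1, 3.02 times for Sik2 and 2.51 times for Crem, and between 1.16 times (Crebbp) and 1.7 times (Atf1) for the other 7.

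**Figure D1:**
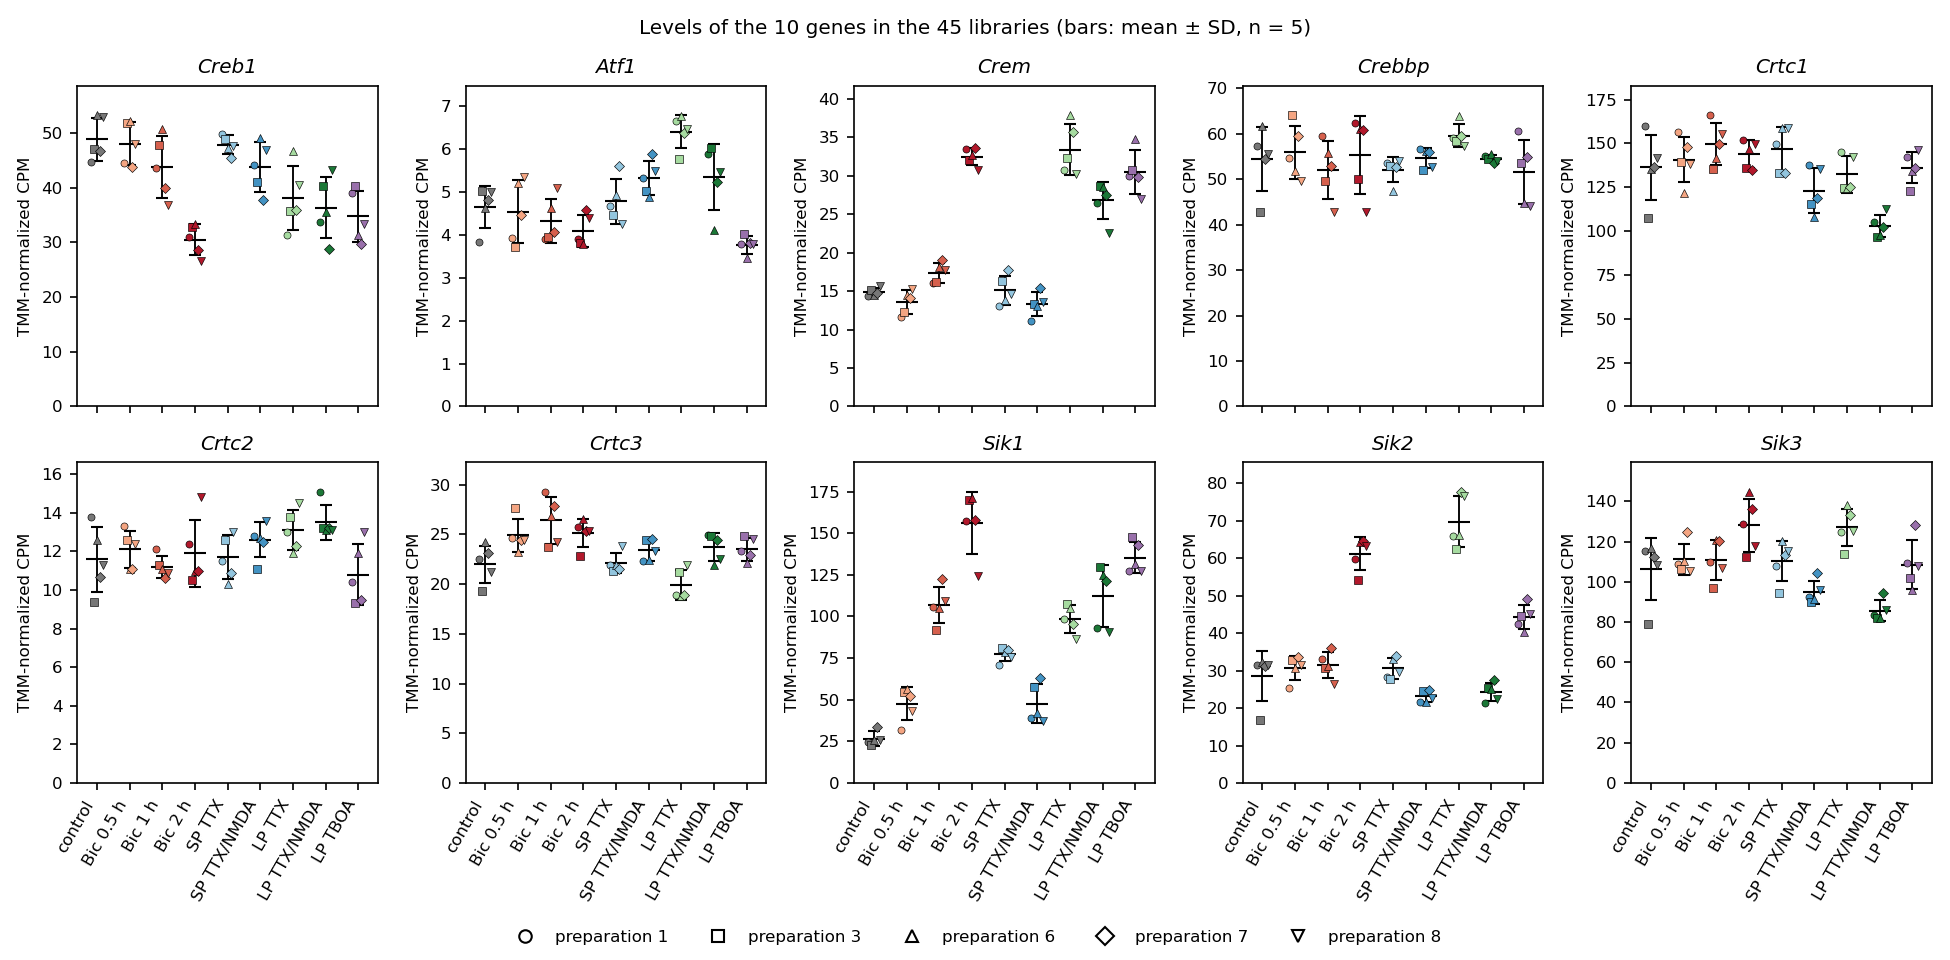
Level of each gene (TMM-normalized CPM, y axis from 0) in the 9 conditions (x axis). Each point is 1 library with the marker of its preparation, and bars give the mean ± SD of 5 preparations. Sik1 climbed at every Bic time point, and Sik2 and Crem stood high at 2 h Bic and in LP TTX. Sik2 measured 21.3 to 27.5 CPM in LP TTX/NMDA.

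More members passed the test (edgeR quasi-likelihood, Benjamini-Hochberg adjusted p under 0.05) after 2 h of Bic than after shorter firing. Sik1 was the 1 member that passed at 0.5 h Bic, where 0.289% of all genes tested passed and 0.574% of those with a mean of at least 1 CPM, a level that all 10 members exceeded. It was again the 1 member at 1 h, where 1.16% and 2.39% passed. At 2 h Bic 4 of 10 members passed (Sik1, Sik2 and Crem up, Creb1 down), against 9.02% of all genes tested and 18.6% of those at 1 CPM or more. Between 0.5 and 1 h of Bic Sik1 passed (0.677% of all genes, 1.48% at 1 CPM or more), and between 1 and 2 h the same 4 as at 2 h (5.33% and 11.6%). Of the SP effects, the passive effect was called for Sik1 (0.268% of all genes, 0.544% at 1 CPM or more). The active effect was called for 3 members, all lower (4.28% and 9.54%), and the total effect for 4, all lower (4.3% and 9.38%).

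In the LP the passive effect was called for 4 members, 2 up and 2 down, where 4.65% of all genes tested and 10.4% of those at 1 CPM or more passed. The active effect was called for 5 members, 4 of them lower. At 23.3% of all genes and 46.9% of those at 1 CPM or more, this share lay near the background, so it is no result about the members as a group. The total effect was called for 7 of 10 members against 45.3% of the genes at 1 CPM or more, and LP TTX/NMDA against control for 5 of 10 against 36.8% (22.8% and 19.5% of all genes tested). The spillover effect was called for Sik2 (0.602% of all genes, 1.37% at 1 CPM or more), and without preparation 8 also for Sik1 and Sik3. LP TTX against control was called for 5 members (6.75% of all genes, 14.4% at 1 CPM or more). The median log2 fold change of the 10 members was 0.12 at 2 h Bic and -0.19 for the LP active effect, against -0.01 and 0.11 over all genes tested. Over the genes at 1 CPM or more the median for the LP active effect was -0.01.

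**Figure D2:**
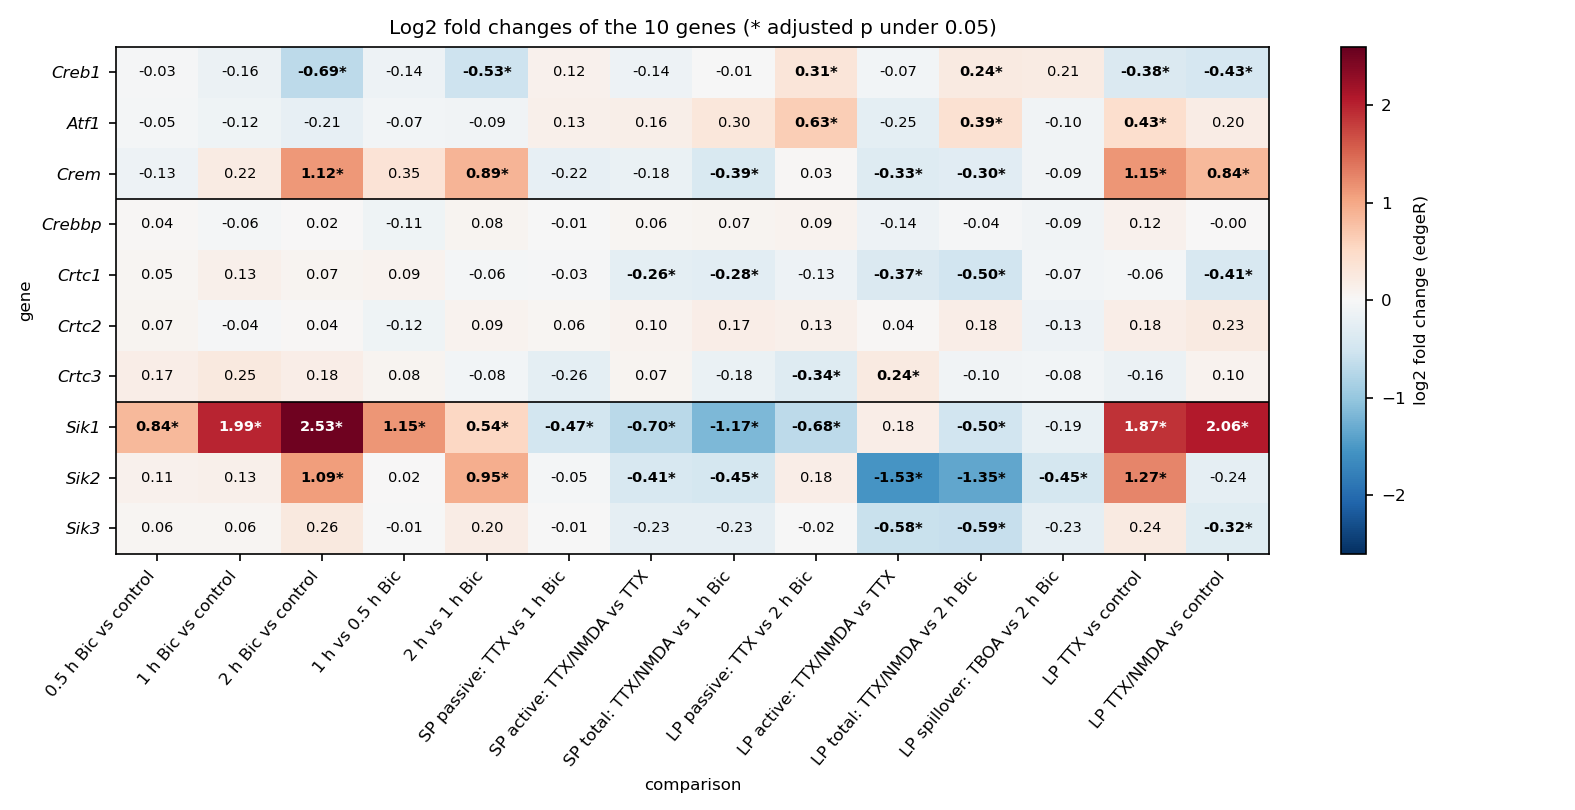
Log2 fold changes of the 10 genes (rows, grouped as CRE-binding factors, coactivators and kinases) in the 14 comparisons (columns), with red for higher and blue for lower. Bold values with an asterisk passed an adjusted p of 0.05. The highest value was that of Sik1 at 2 h Bic (2.53) and the lowest that of Sik2 under the LP active effect (-1.53).

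Crem, the CRE modulator whose gene gives activator and repressor forms, rose late. In the control it measured 14.4, 15.1, 14.5, 14.7 and 15.7 CPM in preparations 1, 3, 6, 7 and 8. At 1 h Bic it measured 16, 16.2, 18.1, 19 and 17.7 CPM, and at 2 h 33.5, 32.1, 32.7, 33.6 and 30.8 CPM. All 5 values at 2 h lay above all values of control and 1 h, and Crem rose in 5 of 5 preparations, 2.17-fold against control (log2 1.12 ± 0.08 SE, edgeR adjusted p = 5.1e-13). The step from 1 to 2 h was 0.89 ± 0.08 (edgeR adjusted p = 5.6e-11). The step from 0.5 to 1 h was 0.35, with an adjusted p of 0.077 by edgeR, 0.031 by DESeq2 and 0.012 with the preparation as a block, a fit that also uses the expression filter wherever it is given. Reads were counted per gene, so ICER and the longer Crem transcripts are summed in these values.

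Crem reached its 2 h Bic range although TTX was present in the second hour. In LP TTX it measured 30.7, 32.3, 37.9, 35.7 and 30.3 CPM, which overlapped with 2 h Bic and lay above every 1 h Bic value, the time at which TTX was added, by 91.9 ± 14.3% within preparations (SD, n = 5). In LP TTX/NMDA it measured 26.5, 28.7, 28.5, 27.5 and 22.6 CPM, below every LP TTX value. This active effect was -0.33 on the log2 scale, or 0.796 times (SE 0.08, edgeR adjusted p = 0.0035), and the total effect -0.30 (edgeR adjusted p = 0.0043). Even so, Crem stayed 1.79-fold above control in LP TTX/NMDA (log2 0.84 ± 0.10, edgeR adjusted p = 1.5e-08). In TBOA it measured 30.0, 30.8, 34.8, 29.9 and 27 CPM, overlapping with 2 h Bic. In the SP, Crem measured 13.1 to 17.8 CPM in TTX and 11.1 to 15.4 in TTX/NMDA against 16 to 19 at 1 h Bic. The SP total effect passed (-0.39, edgeR adjusted p = 0.0089), but not without preparation 1 (-0.36, edgeR adjusted p = 0.052), and the passive and active steps taken singly did not pass.

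Creb1, which encodes CREB itself, moved the other way during firing. The control values were 44.7, 47.1, 53.3, 46.8 and 53.0 CPM, and the 1 h Bic values 43.6, 47.9, 50.7, 39.9 and 36.8 CPM. At 2 h Bic the values were 31, 32.9, 33.3, 28.7 and 26.7 CPM, below all of the control and 1 h values. Creb1 fell by 0.69 on the log2 scale from control to 2 h Bic, to 0.618 times (SE 0.08, edgeR adjusted p = 6.9e-08), in 5 of 5 preparations, and by 0.53 between 1 and 2 h (edgeR adjusted p = 2.2e-05). With LP TTX the values were 31.3, 35.7, 46.8, 36 and 40.6 CPM, higher than 2 h Bic in 5 of 5 preparations, by between 0.966% and 51.9%. The groups overlapped, and the LP passive effect (0.31 ± 0.08, edgeR adjusted p = 0.026) was not called among genes passing the expression filter (adjusted p = 0.059), without preparation 6 (0.083) or without preparation 8 (0.053). The LP total effect on Creb1 (0.24, edgeR adjusted p = 0.049) was lost with DESeq2 (adjusted p = 0.085), with other size factors (0.055), and without preparation 3 (0.061) or 8, where it came to 0.12 (0.34). Creb1 remained below control in LP TTX (-0.38, edgeR adjusted p = 0.0044) and LP TTX/NMDA (-0.43, edgeR adjusted p = 0.0008).

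Atf1, the least abundant of the 10 and a close relative of CREB that binds the same element, had its highest mean in LP TTX. In LP TTX it measured 6.65, 5.78, 6.77, 6.37 and 6.47 CPM, against 3.90, 3.81, 3.79, 4.58 and 4.39 CPM at 2 h Bic. The ranges did not overlap, and the LP passive effect was 1.55-fold (log2 0.63 ± 0.12, edgeR adjusted p = 0.00061). The TBOA values were 3.78, 4.03, 3.46, 3.82 and 3.78 CPM. The LP TTX/NMDA values were 5.90, 6.02, 4.11, 5.23 and 5.48 CPM, overlapping with LP TTX (active effect -0.25, edgeR adjusted p = 0.15). Atf1 was therefore higher in 5 of 5 preparations in LP TTX/NMDA than at 2 h Bic (0.39, edgeR adjusted p = 0.029), a call that was lost without preparation 1 (0.36, adjusted p = 0.11) or 3 (0.34, adjusted p = 0.14). The rise in LP TTX over control (0.43, edgeR adjusted p = 0.027) was lost without preparation 1 (0.37, adjusted p = 0.15), 6 (0.40, 0.11) or 7 (0.45, 0.092). In the SP the TTX/NMDA values of 4.89 to 5.88 CPM against 3.90 to 5.09 at 1 h Bic gave 0.30 (edgeR adjusted p = 0.25) and passed only with the preparation as a block (0.28, adjusted p = 0.037). Counts of 40 to 391 per library stood behind the Atf1 values.

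Among the coactivators, Crtc1, the CRTC most abundant in these neurons, was lowered by TTX/NMDA. Its control values were 160.0, 107.7, 135.5, 136.8 and 141.6 CPM and its 2 h Bic values 152.0, 136.2, 146.6, 135.1 and 149.8 CPM, which overlap. LP TTX gave 145.3, 124.4, 124.3, 125.3 and 142.1 CPM, and LP TTX/NMDA 105.2, 96.7, 97.7, 102.6 and 112.5 CPM. All LP TTX/NMDA values lay below all LP TTX and 2 h Bic values. The LP active effect was -0.37 ± 0.07 (0.774 times, edgeR adjusted p = 0.00014), the total effect -0.50 ± 0.07 (edgeR adjusted p = 6e-07), and the difference from control -0.41 (edgeR adjusted p = 0.00072). In the SP, TTX/NMDA gave 108.3 to 137.4 CPM against 132.9 to 158.8 in TTX and was lower in 5 of 5 preparations. The SP active effect (-0.26, edgeR adjusted p = 0.039) did not pass among genes above the expression filter (adjusted p = 0.067), in a fit of all libraries (0.053) or without preparation 6 (-0.19, 0.2). The SP total effect (-0.28, edgeR adjusted p = 0.017) was lost without preparation 6 (-0.26, adjusted p = 0.056). The LP passive effect on Crtc1 was -0.13 (edgeR adjusted p = 0.33), and -0.14 with the preparation as a block (adjusted p = 0.011), lower in 5 of 5 preparations.

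Crtc3 and Crtc2 covered small ranges. Crtc3 measured 25.7, 22.8, 26.5, 25.3 and 25.3 CPM at 2 h Bic, 18.9, 21.2, 18.8, 18.9 and 21.9 CPM in LP TTX, and 24.9, 24.8, 21.9, 24.4 and 22.5 CPM in LP TTX/NMDA. LP TTX thus lay below 2 h Bic without overlap (-0.34 ± 0.08, edgeR adjusted p = 0.0051, or -0.30 and 0.052 without preparation 6). The LP active effect on Crtc3 was the only rise among the 5 members called there (0.24, edgeR adjusted p = 0.029). It was lost without preparation 1, 3, 6 or 7, at 0.20 to 0.25 with adjusted p between 0.08 and 0.14. Crtc3 was higher than control in 5 of 5 preparations at 1 h and at 2 h Bic (0.25 and 0.18, edgeR adjusted p = 0.34 and 0.27), and both changes were called with the preparation as a block (adjusted p = 0.03 and 0.029). Its SP total effect of -0.18 was called with the block (adjusted p = 0.041). The condition means of Crtc2 ran from 10.8 CPM in TBOA to 13.5 CPM in LP TTX/NMDA, and 0 of 14 comparisons were called by edgeR or DESeq2. At an unadjusted p under 0.05 there was 1, LP TTX/NMDA against control, which the block called (0.25, adjusted p = 0.025).

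Crebbp, which encodes the acetyltransferase CBP, was the steadiest member. Its condition means lay between 51.6 CPM in TBOA and 59.6 CPM in LP TTX, and 0 of 14 comparisons were called by edgeR, with 1 at an unadjusted p under 0.05. That comparison was the LP active effect. LP TTX values of 59.0, 58.3, 64.0, 59.5 and 57.2 CPM stood against LP TTX/NMDA values of 55.1, 54.4, 55.5, 53.5 and 54.0 CPM. The ranges did not overlap, yet the difference was small (-0.14 ± 0.06, edgeR adjusted p = 0.13). It was called by DESeq2 (-0.14, adjusted p = 0.026) and with the preparation as a block (-0.11, adjusted p = 0.039). Ep300, which encodes the closely related acetyltransferase p300 and is no member, fell from 76.5 to 45.1 CPM in the same comparison (-0.77 ± 0.06, edgeR adjusted p = 1.7e-10).

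Sik1 was the member with the most calls, in 12 of 14 comparisons, and its level followed the duration of firing. The control values were 24.7, 22.5, 25.8, 33.9 and 26 CPM, and the 0.5 h Bic values 31.9, 54.6, 56.2, 52.1 and 43.5 CPM. At 1 h they reached 105.5, 91.8, 105.1, 122.4 and 109.5 CPM, and at 2 h 157.6, 170.1, 171.0, 157.7 and 124.6 CPM. From 0.5 h on each time point lay above the previous one without overlap, and 0.5 h overlapped with control in 1 library, that of preparation 1. The rise over control was 1.79-fold at 0.5 h (log2 0.84 ± 0.11, edgeR adjusted p = 2.3e-07), 3.98-fold at 1 h (edgeR adjusted p = 1.1e-19) and 5.79-fold at 2 h (edgeR adjusted p = 1.4e-20). The steps from 0.5 to 1 h and from 1 to 2 h were 2.23-fold and 1.46-fold (edgeR adjusted p = 8.1e-17 and 3.4e-06).

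Both TTX and TTX/NMDA reduced Sik1 in the SP. TTX values of 71.1, 80.9, 78.9, 79.6 and 75.6 CPM lay below all 1 h Bic values and above all 0.5 h values, the time of TTX addition. TTX/NMDA gave 38.8, 57.5, 42.3, 62.9 and 37.1 CPM, below all SP TTX values and within the range of the 0.5 h Bic libraries except for the libraries of preparations 3 and 7. The passive effect was -0.47 ± 0.07 (0.72 times, edgeR adjusted p = 7.1e-05) and the active effect -0.70 ± 0.10 (0.615 times, edgeR adjusted p = 8.2e-06), and the total effect came to 0.446 times (edgeR adjusted p = 1.1e-10). In a fit of all libraries at once the passive effect kept its size and missed the threshold (adjusted p = 0.069).

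The LP gave Sik1 a different pattern. LP TTX values of 98.2, 107.4, 104.8, 95.2 and 86.2 CPM lay below all 2 h Bic values (0.626 times, log2 -0.68 ± 0.07, edgeR adjusted p = 1.2e-07) and overlapped with those at 1 h Bic. LP TTX/NMDA gave 93.3, 130.0, 125.2, 121.3 and 90.5 CPM, higher than LP TTX in 4 of 5 preparations. This active effect was 0.18 (edgeR adjusted p = 0.15), and it was called with the preparation as a block (0.20, adjusted p = 0.0077) or without preparation 8 (0.21, adjusted p = 0.039). The total effect was -0.50 (0.71 times, edgeR adjusted p = 8.3e-05). In TBOA, Sik1 measured 127.5, 147.8, 131.3, 142.8 and 127.4 CPM, lower than 2 h Bic in 4 of 5 preparations (-0.19, edgeR adjusted p = 0.38, or -0.25 and 0.024 without preparation 8, whose 2 h Bic library was low). Sik1 stayed far above control in LP TTX (3.64-fold) and in LP TTX/NMDA (4.17-fold, edgeR adjusted p = 6.8e-18 and 1.5e-17).

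In the SP, Sik1 was the member lowest with TTX/NMDA relative to TTX. Sik2 rose late and was the lowest in the LP on the same measure. Its control values were 31.5, 16.7, 32.2, 31.2 and 31.5 CPM, its 1 h Bic values 33.2, 30.7, 31.1, 36 and 26.5 CPM, and its 2 h Bic values 59.8, 54.2, 64.3, 64.5 and 63.3 CPM. All 2 h values were above all earlier ones (2.12-fold over control, log2 1.09 ± 0.11, edgeR adjusted p = 4.5e-09; step from 1 to 2 h 1.94-fold, edgeR adjusted p = 1.4e-11). Without preparation 3, whose control library was low, the rise over control was 0.99 (edgeR adjusted p = 8.8e-17). In LP TTX, Sik2 went on to 66.0, 62.6, 66.2, 77.8 and 76.6 CPM, higher than at 2 h Bic in 5 of 5 preparations. This passive difference was 0.18 (edgeR adjusted p = 0.17), and it was called with the preparation as a block (0.17, adjusted p = 0.0061).

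With TTX/NMDA in place of TTX, Sik2 measured 21.3, 25.3, 25.1, 27.5 and 22.5 CPM. The values lay far below every LP TTX value, at 0.345 times (log2 -1.53 ± 0.08, edgeR adjusted p = 2.8e-14). They were lower by between 59.6% and 70.6% in each preparation. Relative to 1 h Bic, when TTX or TTX/NMDA was added, LP TTX was higher by a mean of 124.3% within preparations. LP TTX/NMDA was lower than 1 h Bic by a mean of 22.2%, and those ranges overlapped. Against 2 h Bic the total effect was 0.393 times (edgeR adjusted p = 6.6e-15). Against control the difference was -0.24 (edgeR adjusted p = 0.18), and -0.40 without preparation 3 (edgeR adjusted p = 0.0015). Leaving out that preparation removes both its control and its LP TTX/NMDA library. TBOA gave 42.4, 44.7, 40.3, 49.1 and 45.2 CPM, between 2 h Bic and 1 h Bic and apart from both. Sik2 was called for spillover (0.731 times, log2 -0.45 ± 0.07, edgeR adjusted p = 0.00015). In the SP, before Sik2 had risen, TTX left it at 27.7 to 34 CPM, in the range of 1 h Bic, and TTX/NMDA gave 21.7, 24.6, 21.7, 24.7 and 22.7 CPM, below every SP TTX and 0.5 h Bic value. The SP active effect was -0.41 ± 0.08 (edgeR adjusted p = 0.00068) and the total effect -0.45 (edgeR adjusted p = 0.00028).

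Sik3, the most abundant of the 3 kinases in control neurons, changed less. It measured 115.3, 79.0, 117.0, 112.1 and 108.3 CPM in control and 128.6, 112.4, 144.8, 136.3 and 117.8 CPM at 2 h Bic. It was higher at 2 h in 5 of 5 preparations, by 0.26 (edgeR adjusted p = 0.084), which passed with the preparation as a block (0.27, adjusted p = 0.005). The step from 1 to 2 h (0.20, edgeR adjusted p = 0.13) and LP TTX against control (0.24, adjusted p = 0.12) were likewise called with the block (adjusted p = 0.00039 and 0.0098). LP TTX gave 124.6, 113.9, 138.0, 133.1 and 125.3 CPM, and LP TTX/NMDA 83.4, 82.1, 82.0, 94.4 and 86.1 CPM, lower without overlap. The LP active effect was 0.671 times (log2 -0.58 ± 0.07, edgeR adjusted p = 1.8e-07) and the total effect 0.662 times (edgeR adjusted p = 1.4e-07). LP TTX/NMDA also lay below control (-0.32, edgeR adjusted p = 0.011), a call lost without preparation 1 (-0.28, adjusted p = 0.06) or 6 (-0.27, adjusted p = 0.074). In the SP, Sik3 was lower with TTX/NMDA than with TTX in 5 of 5 preparations (-0.23, edgeR adjusted p = 0.062, block adjusted p = 0.021), and lower than at 1 h Bic (-0.23, edgeR adjusted p = 0.056, with the expression filter 0.042 and with the block 0.0021). DESeq2 called both (adjusted p = 0.023 and 0.016). By edgeR the active effect was also called without preparation 3 (adjusted p = 0.04). The total effect was also called with other size factors (0.039) or without preparation 8 (0.02). With TBOA the difference from 2 h Bic was -0.23 (edgeR adjusted p = 0.26), and -0.25 without preparation 8 (adjusted p = 0.02).

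**Figure D3:**
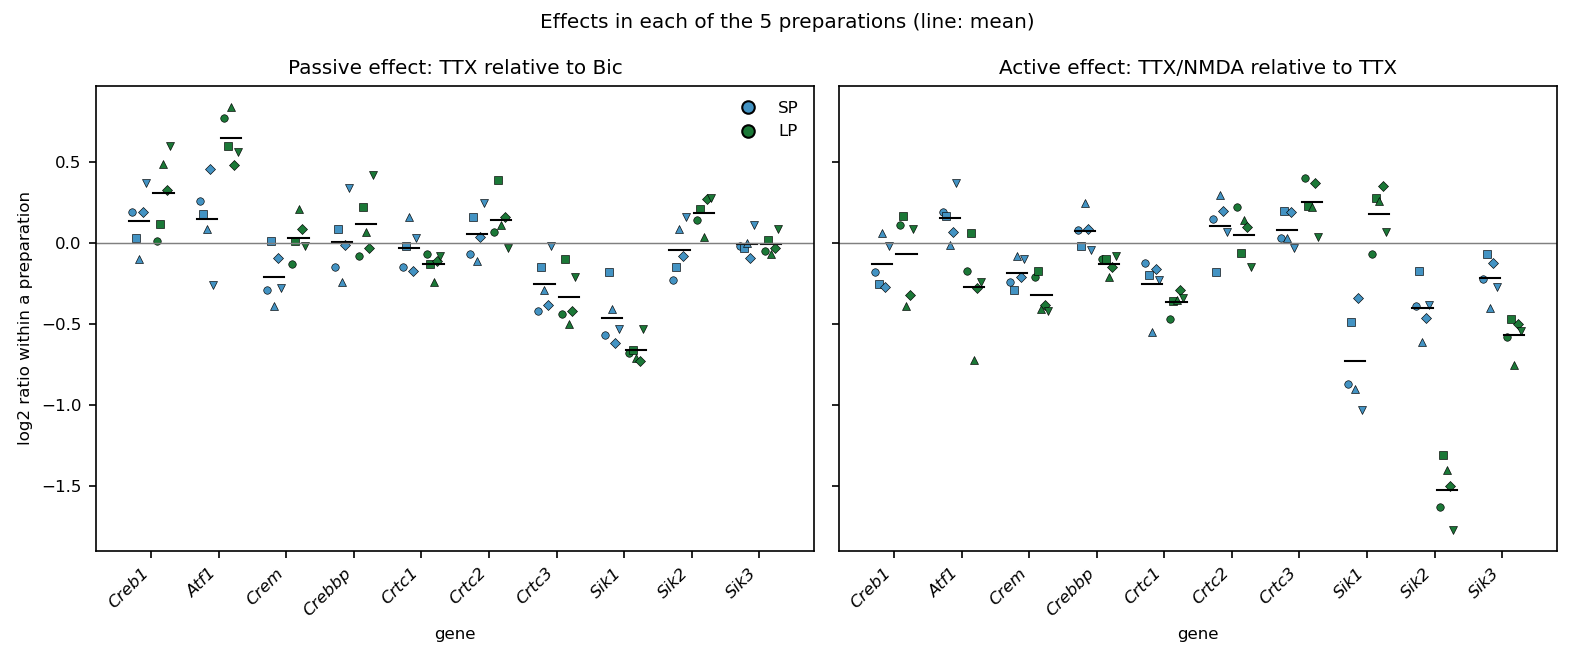
Log2 ratio within each preparation (y axis) for the passive effect (left) and the active effect (right) of the 10 genes (x axis), in the SP (blue) and the LP (green). Points are preparations and lines their means. All 5 Sik1 points of the active effect lay below 0 in the SP while 4 of 5 lay above 0 in the LP, and all Sik2 points lay below 0 in both, furthest in the LP.

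Whether the effects differed between the protocols was tested as an interaction over the 20 libraries of both. For the passive effect 0 of 10 members differed by edgeR (0.256% of all genes tested and 0.625% of those at 1 CPM or more did), with 3 at an unadjusted p under 0.05 (Atf1, Sik2 and Crem). Of these, Atf1 was called with the preparation as a block (0.51, adjusted p = 0.04). For the active effect 2 members differed by edgeR, where 2.57% of all genes tested and 6.09% of those at 1 CPM or more did. Sik1 responded to NMDA less negatively in the LP than in the SP, by 0.89 ± 0.15 on the log2 scale (edgeR adjusted p = 0.00018). Sik2 responded more negatively, by -1.11 ± 0.11 (edgeR adjusted p = 1e-08). For Sik3 the difference was -0.34 (edgeR adjusted p = 0.056), which DESeq2 (adjusted p = 0.013), the expression filter (0.025) and the block (0.00048) called. The block also called Atf1 (-0.38, adjusted p = 0.031) and Crebbp (-0.20, adjusted p = 0.035), so that 5 members passed in that fit.

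Sik1, Sik2 and Crem stood at different portions of their 2 h Bic rise in the LP conditions. The rise from control to 2 h Bic in a preparation was set to 100%. By 1 h of Bic, Sik1 had covered 63.7 ± 14.8% of it (SD, n = 5) and Crem 14.2 ± 7.16%. For Sik2 the mean was 7.65%, with single preparations between -15.8% and 37.3%. After the second hour with TTX, Sik1 stood at 55.5 ± 4.24%, Sik2 at 126.3 ± 14.8% and Crem at 104.4 ± 16.5%. Sik2 and Crem thus reached or passed their 2 h Bic level with TTX present in the second hour, and Sik1 did not. With TTX/NMDA the portions were 65.8 ± 8.38% for Sik1, -14.9 ± 23.1% for Sik2 and 66.7 ± 13.3% for Crem. With TBOA they were 85.2 ± 11.6%, 47.0 ± 18.6% and 88.2 ± 14.6%. The low control library of preparation 3 gave Sik2 its highest value at 1 h Bic (37.3%), in LP TTX/NMDA (23%) and in TBOA (74.7%).

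**Figure D4:**
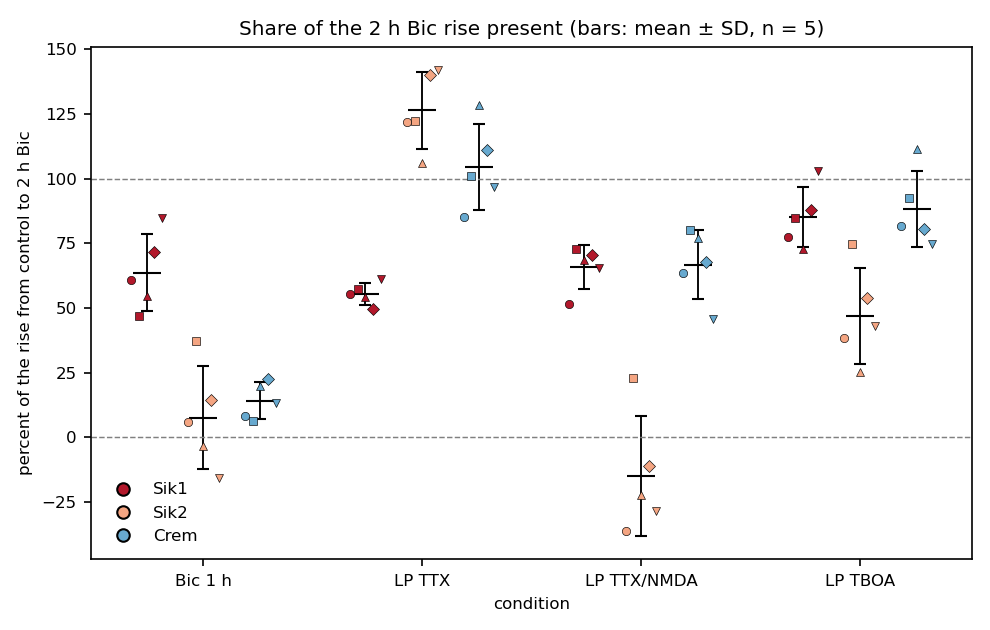
Portion of the rise from control to 2 h Bic (y axis, percent, 0 being the control level and 100 the 2 h Bic level of the same preparation) for Sik1, Sik2 and Crem in 4 conditions (x axis). Points are preparations, bars mean ± SD. In LP TTX/NMDA the 5 Sik2 values ran from -35.9% to 23%, below all Sik1 and Crem values.

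The changes altered the makeup of each family on the per-length scale. In control neurons Sik3 made up 58.3 ± 2.15% (SD, n = 5) of the summed Sik RPKM, Sik1 26.6 ± 3.25% and Sik2 15.1 ± 1.87%. At 2 h Bic, Sik1 made up between 55.7% and 65.1% (SD 3.38, n = 5) and Sik3 27.2 ± 2.05%, while the summed level rose from 19.6 ± 2.87 to 50.6 ± 4.39 RPKM. In LP TTX/NMDA the Sik sum was 33.6 ± 3.91 RPKM, with 64.7 ± 3.72% from Sik1 and 7.62 ± 0.359% from Sik2. Of the CRE-binding trio, Creb1 gave 46.8 ± 1.75% and Crem 33.2 ± 1.44% in control, and 24.5 ± 1.90% and 60.8 ± 0.747% at 2 h Bic. The order of these genes was thus exchanged on this scale in all 5 preparations. Crem still exceeded Creb1 there in all libraries of the 3 LP conditions. That order depends on the merged exon lengths, 13742 bases for Creb1 and 5895 for Crem. In CPM the Creb1 mean was above that of Crem in LP TTX (38.1 against 33.4), LP TTX/NMDA (36.4 against 26.8) and LP TBOA (34.8 against 30.5). At 2 h Bic the CPM means were 30.5 for Creb1 and 32.5 for Crem. The Crtc family was led by Crtc1 throughout, which made up 70.6 ± 1.48% in control, 70.2 ± 1.19% at 2 h Bic and 61.7 ± 1.87% in LP TTX/NMDA, where the family sum was 14.9 ± 0.662 RPKM against 17 ± 1.15 in LP TTX.

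**Figure D5:**
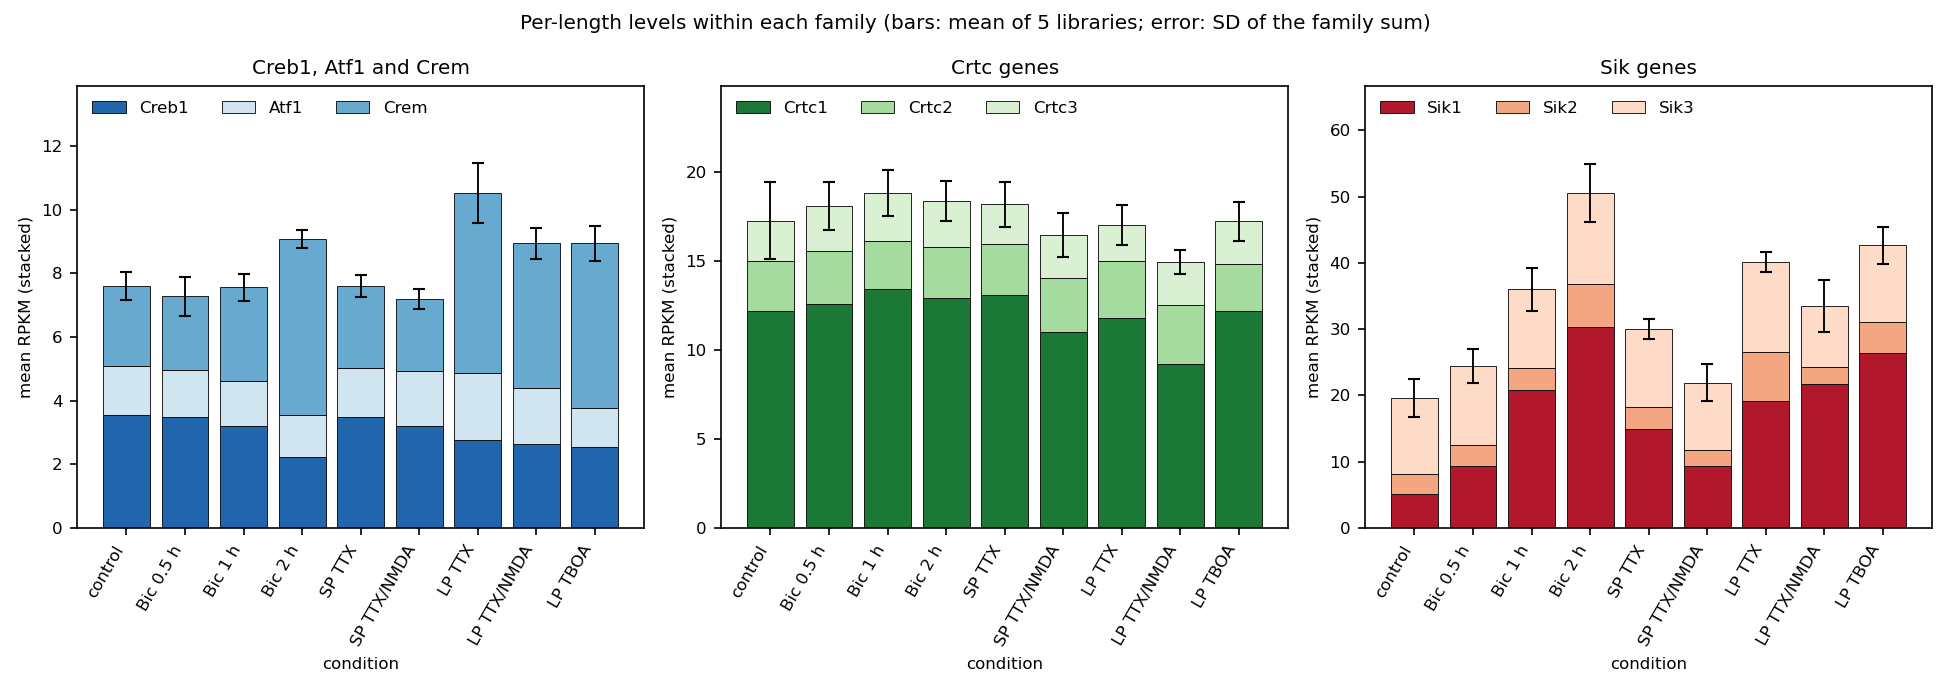
Mean level per transcript length (RPKM, stacked, y axis from 0) of the CRE-binding factors, the Crtc coactivators and the Sik kinases in the 9 conditions (x axis), means of 5 libraries with the SD of the family sum. At 2 h Bic Crem makes up 60.8% of the left stack and Sik1 at least 55.7% of the right one in each preparation.

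Other genes of the pathway were taken from lists of upstream kinases, phosphatases, partners and targets. Of 20 textbook target genes with CRE sites, 19 rose and 0 fell at 2 h Bic (median log2 fold change 1.81). Fosb, Fos and Junb, which encode subunits of AP-1, led (log2 6.88, 5.39 and 4.54). Of all genes tested 4.24% were called up, and 18.6% of those at 1 CPM or more were called in either direction. The list was chosen with earlier results of these data known, so the rise describes these genes and is no test. In LP TTX against 2 h Bic 11 fell and 1 rose, where 4.65% of all genes and 10.4% of those at 1 CPM or more were called. Under the LP active effect 9 fell and 4 rose, with a median of 0.01, where 23.3% and 46.9% were called. There the largest changes were those of Dusp1, a MAP kinase phosphatase (2.21, from 37.6 to 174.0 CPM), Per2, a clock gene (-1.79), and Pcsk1, a prohormone convertase (-1.70). All 15 target genes with a promoter window held a half-site in at least 1 window, against 23% of all genes. This list is one of genes known for CRE sites, and 5 of them held a full CRE, against 2.03%.

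Of 19 kinases, cyclases and regulatory subunits upstream of CREB, 1 rose and 1 fell at 2 h Bic: Prkar2a, a regulatory subunit of protein kinase A (0.31), and Rps6ka5, the CREB kinase MSK1 (-0.35). At 2 h Bic 9.02% of all genes and 18.6% of those at 1 CPM or more were called. Under the LP active effect 12 of the 19 fell and 1 rose, where 11.8% of all genes tested fell and 11.6% rose, and 46.9% of the genes at 1 CPM or more were called in either direction. Camk4, the nuclear calcium/calmodulin kinase that phosphorylates CREB, went from 402.4 ± 31.8 to 230.5 ± 32.2 CPM (SD, n = 5, log2 -0.81, edgeR adjusted p = 7.1e-09). Prkacb, a catalytic subunit of protein kinase A, fell by 0.63 and Prkar2a by 0.69. Of 20 phosphatase and regulator genes, 3 rose at 2 h Bic, Pde4d (0.66) and Pde4b (0.37), which degrade cAMP, and Stk11 (0.25), the LKB1 kinase that activates salt-inducible kinases, beside the same 9.02% and 18.6%. Under the LP active effect 7 of these 20 fell and 0 rose, among them Ppp3cb, a catalytic subunit of calcineurin (-0.36), Pde4d (-0.35) and Cab39, a partner of LKB1 (-0.32). This was a smaller share than the 46.9% called among genes at 1 CPM or more, and 23.3% of all genes were called.

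Of 8 further partners, Cited2, which binds CBP and p300, rose 2.36-fold at 2 h Bic, and Taf4 (-0.41) and Fhl2 (-0.33) fell. Under the LP active effect 3 fell, led by Ep300, and 2 rose, Kat2b (0.51) and Cited2 (0.45), where 23.3% of all genes and 46.9% of those at 1 CPM or more were called. Of 13 related bZIP factors, 3 rose and 1 fell at 2 h Bic, with Nfil3 (2.74) and Cebpb (1.31) highest and Crebrf (-0.84) lowest, and 7 rose and 2 fell under the LP active effect, led by Cebpd (1.09), Creb3l2 (0.76) and Cebpb (0.64). The shares of genes called, for these factors as for the partners, were 9.02% of all genes and 18.6% of those at 1 CPM or more at 2 h Bic, and 23.3% and 46.9% for the LP active effect.

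The 4 genes whose 9 condition means were most like those of Sik1, by Pearson's correlation of log2(CPM + 1) among 13592 genes, were Maff (0.992), Plk2 (0.99), Btg1 (0.989) and Rasl11a (0.989). For Crem the 5 most alike were Tnfrsf12a (0.985), Omg (0.983), Hspa14 (0.982), Mapkapk2 (0.98) and Arf4 (0.98). Plk2, for example, went from 145.2 CPM in control to 658.1 at 2 h Bic, 408.2 in LP TTX and 413.3 in LP TTX/NMDA. Tnfrsf12a went from 6.96 to 14.5, 14.4 and 11.3 CPM. These correlations describe 9 means from the same libraries and are given without a test.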

How the data were processed

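PolyA RNA from 45 libraries of mouse hippocampal cultures was sequenced as single-end reads on an Illumina NextSeq. Per the labels and the study's methods, the authors converted reads with bcl2fastq 2.20.0.422, aligned them to GRCm38 with STAR 2.5.4b and counted them per Ensembl gene with featureCounts 1.6.5, by strand and without multi-mapping or multi-overlapping reads. The deposited values are raw counts per gene and were used as deposited.

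The members and gene lists were chosen with earlier results of these data known. Libraries were grouped by their labels. Each comparison was fitted to the libraries it concerns with edgeR 4.0.16 (R 4.3.3), TMM scaling, the quasi-likelihood test and Benjamini-Hochberg adjustment over all genes with at least 1 read, called at an adjusted p under 0.05. CPM were scaled by TMM over all libraries, and RPKM used merged exon lengths of GENCODE M21. Fold changes are log2 with SE. The named context genes were those with the largest called change in each list, up to 3, at 2 h Bic and for the LP active effect. The genes most like Sik1 and Crem were the 5 with the highest correlation of condition means, of which 1 is not reported here.

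Each library carries a replicate number in its label, which was taken to mark the culture preparation and so to pair the libraries. The study states that its replicates were separate preparations. Deviations from the condition means correlated at a mean r of 0.45 within a preparation over 180 pairs of libraries, and at -0.11 between preparations. Deviations cancel out within a condition, which makes the second value negative, so it adds nothing to the first. The main fit had no block, since the study's methods state none, and a fit with the preparation as a block is given where it changed a call. Alternatives were DESeq2 1.42.0, other size factors, an expression filter, the block with that filter, 1 fit of all 45 libraries, and leaving out each preparation. The scripts were tested on simulated data, where the main fit made more false calls than its nominal rate and more than DESeq2 or the expression filter, so calls near the threshold are the least certain. Precision is limited by counts per gene, which were lowest for Atf1.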

Additional observations from a re-analysis of the deposited data

Results flagged for a closer look

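Of 90 groups of 5 libraries (10 genes in 9 conditions), 7 held 1 library whose gap to the nearest other was wide against the range of its group, and chance gives about 1 in 20. Sik2 in the control of preparation 3 was 16.7 CPM against 31.2 to 32.2 CPM in the other preparations. Sik3 in the same library was 79.0 CPM against 108.3 to 117.0 CPM. Sik1 at 2 h Bic in preparation 8 was 124.6 CPM against 157.6 to 171.0 CPM. Sik3 at 0.5 h Bic in preparation 7 was 124.6 CPM against 105.5 to 110.5 CPM. Crebbp in SP TTX of preparation 6 was 47.3 CPM against 52.6 to 54.1 CPM. Crtc2 in LP TTX/NMDA of preparation 1 was 15.1 CPM against 13.1 to 13.2 CPM. Crtc3 in SP TTX of preparation 8 was 23.8 CPM against 21.3 to 21.9 CPM.

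The active effect differed between the LP and the SP for Sik1 (0.89 on the log2 scale, edgeR adjusted p = 0.00018) and for Sik2 (-1.11, edgeR adjusted p = 1e-08), each tested as an interaction.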

How the results depend on the processing

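Of 48 member changes called, 37 were called under each of the 10 alternatives and 0 reversed. Those lost are given beside their values in the report. The preparation block lost 0 of the 48, and the calls it gained are given with the results; it changed no other call of a member. The count of members called moved at 1 h Bic to 2 with the replicate block, and between 0.5 and 1 h from 1 to 2 with DESeq2, the block or 1 fit of all libraries (1 to 2 leaving out each preparation). It moved for the SP passive effect to 0 in 1 fit of all libraries, for the SP total effect to 7 with the block, and for the difference between protocols to 1 (passive) and 5 (active) with the block. Leaving out each preparation gave 2 to 4 members for the LP passive effect and 1 to 3 for spillover, and the cause was not tested.

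Over all genes, counts of calls moved by more than 1.5 times in several comparisons. The fit with the replicate block changes the filter as well, so its count follows that of the main fit and that of the filter alone: 357, 312 and 618 (1 h Bic), 2789, 2865 and 4479 (2 h), 1652, 1768 and 3607 (2 against 1 h), 1379, 1408 and 2548 (SP active), 1351, 1482 and 4217 (SP total), 1485, 1712 and 4978 (LP passive), 191, 104 and 417 (spillover), 2140, 2186 and 3713 (LP TTX against control), 88, 83 and 323 (difference in passive effect) and 900, 1249 and 4165 (difference in active effect). DESeq2 gave 2320 (LP passive), 315 (spillover), 183 and 1660 (differences). For the SP passive effect the filter gave 35 instead of 85 and 1 fit of all libraries 54, and that fit gave 106 for spillover. Leaving out a preparation gave 52 (without 1) and 163 (without 3) for the SP passive effect, 801 (without 1) and 2068 (without 8) for the SP total effect, 928 (without 6) and 909 (without 7) for the LP passive effect, 123 (without 6) and 493 (without 8) for spillover, 39 to 47 (without 1, 3, 6 or 7) for the difference in passive effect and 489 (without 1) for that in active effect. Other size factors shifted the log2 fold changes of genes with a mean of at least 1 CPM by a median of -0.01 to 0.01 per comparison.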
